A study of Homo sapiens with 12 samples.

Results

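Raising CDCA7 in one oesophageal squamous cell carcinoma line was compared with lowering it in another. KYSE180 and KYSE150 are established human lines. KYSE180 was sequenced as a native control (genotype WT) and with CDCA7 overexpression, labelled CDCA7EXP. KYSE150 was sequenced as a native control (genotype WT) and with shCDCA7, a short hairpin RNA against CDCA7, labelled CDCA7SH. Each of the 4 groups had 3 bulk RNA-seq libraries of total RNA from cultured cells. For every gene the overexpression effect (CDCA7EXP minus KYSE180 control) and the knockdown effect (shCDCA7 minus KYSE150 control) were taken on log2(FPKM + 1), and the second was subtracted from the first. FPKM is a read level scaled for gene length and library size, and the added 1 makes the log2 change of a low gene smaller than the ratio of its FPKM. A positive difference means that the gene stood higher after overexpression than after knockdown, each against its own control. The difference was tested in the 12672 genes, of 58735 in the table, with a mean of at least 1 FPKM over the 12 libraries. ACYP2, at a mean of 1.0003 FPKM, was just inside this limit, and TM4SF19, at 0.9997, was just outside.

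The manipulation and the line change together, so a difference between raising and lowering CDCA7 cannot be told apart from a difference between KYSE180 and KYSE150. The controls are native cells, and the labels give neither an empty-vector or scrambled-hairpin control nor the vector, the promoter or the number of clones. Nothing in the labels shows that the libraries of a group are separate cultures, and a p-value here reflects how far these libraries scatter, and that scatter may be technical. Library depth was 16282281 to 19573805 reads. In shCDCA7 replicate 2, 11.2% of reads were mitochondrial, against 5.20% and 5.73% in the other shCDCA7 libraries, and its lowest correlation with its own group was 0.939. The mitochondrial share was also higher in every CDCA7EXP library (7.97%, 8.56% and 8.65%) than in the KYSE180 controls (4.76%, 5.20% and 6.38%). All 13 squamous epithelial identity markers were tested, and none was at 0 in any library. LYZ was at 0 throughout, and the highest value of any leukocyte or endothelial marker was 1.28 FPKM, for VWF. Among 11 fibroblast markers, FBLN1 reached 17.99 and COL1A1 5.39 FPKM, and the rest stayed at or below 0.463 FPKM.

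CDCA7 is a zinc-finger protein that recruits the chromatin remodeller HELLS and is needed to maintain DNA methylation. Cells with too little DNA methylation can make double-stranded RNA from repeats, which the sensors RIG-I (DDX58) and MDA5 (IFIH1) detect, and interferon signalling then switches on a common set of antiviral genes through transcription factors that include STAT2 and IRF9. These statements are background and were not measured here.

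The targeted gene followed its labels in every library. CDCA7 (chr2:173354820-173368997, plus strand, GRCh38) measured 24.0, 18.2 and 17.4 FPKM in native KYSE180 libraries against 44.6, 59.1 and 57.9 after overexpression. Native KYSE150 libraries held 27.4, 25.6 and 25.6 FPKM against 9.24, 10.1 and 8.83 with shCDCA7. The groups did not overlap in either line, and the effects were nearly equal in size, 1.40 and -1.39, giving a difference of 2.79 (SE 0.20, adjusted p = 0.000119). SMAD4 and SMAD7, the shared mediator and an inhibitor of TGF-beta signalling named in the series title, did not pass the test. SMAD4 had a difference of -0.06 (95% interval -0.37 to 0.26, adjusted p = 0.858), with both effects slightly above 0. SMAD7 had 0.42 (95% interval -0.19 to 1.03, adjusted p = 0.417). SMAD7 was at 0.717, 0.866 and 0.534 FPKM in native KYSE180 and 1.57, 1.09 and 1.14 after overexpression, all higher than the controls. In KYSE150 it was at 3.15, 3.35 and 3.15 FPKM in native cells and 4.12, 1.87 and 3.98 with shCDCA7, where replicate 2 stood below the rest.

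Across the table, 612 genes (4.83% of those tested) had a called difference at a Benjamini-Hochberg adjusted p under 0.05 in limma. Of these 323 (2.55%) were higher and 289 (2.28%) lower after overexpression relative to knockdown. Scaled to total reads instead, 442 were higher and 217 lower. In 254 of the 612 the effects lay at least 1 log2 unit apart. Overexpression on its own called 2046 genes (16.1%), 1110 higher (8.76%) and 936 lower (7.39%). Knockdown called 2895 (22.8%), 1624 higher (12.8%) and 1271 lower (10.0%). These 2 effects share no library, but both tests used the same spread per gene, estimated over all 4 groups. A call in 1 line therefore also depends on the scatter of that gene in the other line. Genes called in both lines numbered 786, and 739 of them moved in the same direction, 407 up in both and 332 down in both. The remaining 47 moved in opposite directions, 21 of them with CDCA7 (a count that includes CDCA7 itself) and 26 against it, and all 47 had a called difference. That nearly follows from the definition, since the difference subtracts 2 called effects of opposite sign. Most called differences came from genes that passed in 1 line: 206 were called in KYSE180 and not in KYSE150, and 319 the other way round. A further 25 moved the same way in both lines by unequal amounts, and 15 passed in neither line alone. Single libraries weighed on these counts: 136 of the 612 were called whichever library was left out, and without KYSE150 control replicate 1 the totals were 93 higher and 66 lower. CDCA7, IFI44, TXNRD1, FAS, TNS4, GJB5, PTHLH, MMP2, SFPQ and ACTG1, described below, were among the 136. TWIST1 was called in 5 of the 12 omissions, SNAI1 in 4, HIF1A in 7, and B2M and PSMB9 in 2.

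**Figure D1:**
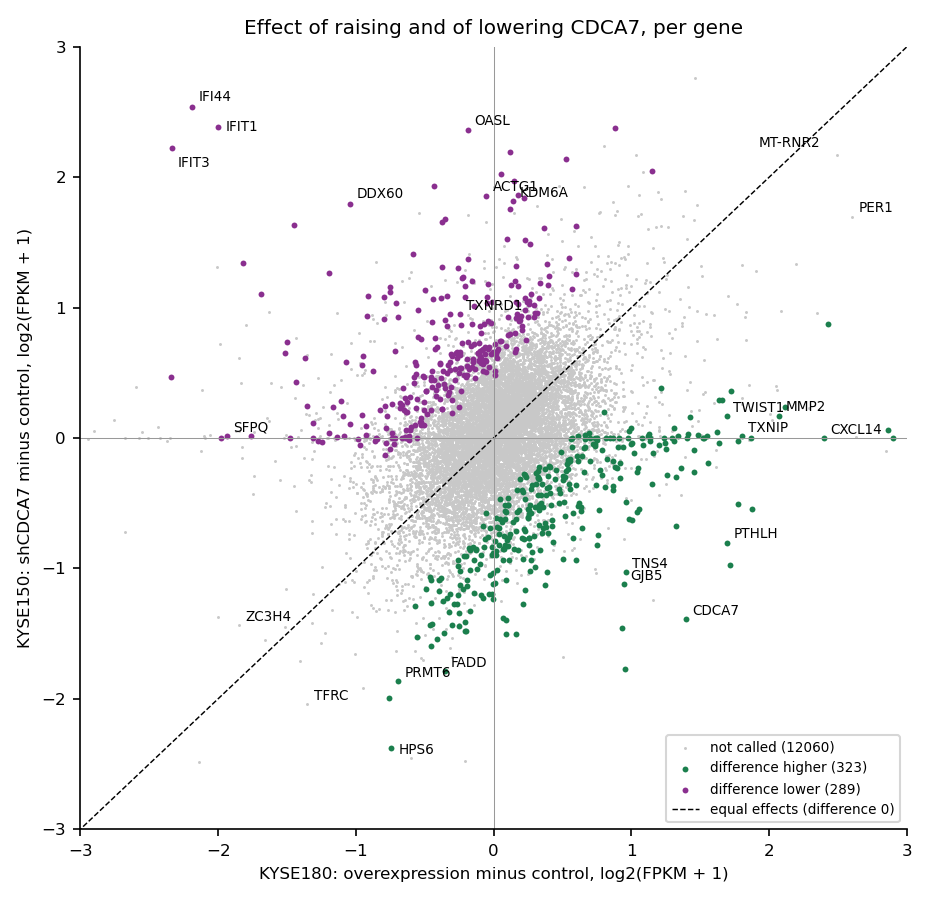
Overexpression effect in KYSE180 (x axis) against shCDCA7 effect in KYSE150 (y axis), log2(FPKM + 1), 1 point per tested gene; 5 genes lie outside the axes. Genes with a called difference (323 higher in green, 289 lower in purple) lie away from the dashed line of equal effects, with CDCA7 at lower right and the interferon-stimulated IFI44, IFIT1 and IFIT3 at upper left.

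Interferon-stimulated genes gave the lowest called differences in the table. Many fell after overexpression in KYSE180, and a smaller number rose after knockdown in KYSE150. Of the 60 genes on this list, 55 were tested; 15 were called lower (27.3%, against 2.28% of all genes) and 0 higher. The median difference was -1.79, against -0.01 over all genes tested, and the estimate was below 0 for all 55. Taken singly, overexpression lowered 31 and raised none by the test, and knockdown raised 11 and lowered 1. Over all tested genes, overexpression lowered 7.39% and raised 8.76%, and knockdown raised 12.8% and lowered 10.0%. The spread behind both tests includes the scatter of the KYSE180 controls. In bulk RNA, fewer cells making such a transcript cannot be told apart from less of it in each cell.

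The members called in both lines, in opposite directions, were IFI44, IFIT3, IFIT1, RSAD2, DDX60, DDX58 and IFIH1. IFI44, an interferon-induced gene, was at 117, 28.9 and 80.9 FPKM in native KYSE180 and 12.8, 13.8 and 13.9 after overexpression, and at 1.03, 0.959 and 1.08 in the KYSE150 controls and 9.90, 13.6 and 9.18 with shCDCA7. The groups did not overlap in either line, and the difference was -4.73 (SE 0.53, adjusted p = 0.00163). IFIT3, whose family binds foreign RNA and limits its translation, went from 166, 48.1 and 85.3 to 13.8, 17.9 and 18.6 FPKM in KYSE180 and from 3.74, 5.09 and 4.30 to 20.4, 38.4 and 17.5 in KYSE150, a difference of -4.56 (SE 0.54, adjusted p = 0.00215). Its partner IFIT1 differed by -4.39 (SE 0.60, adjusted p = 0.00353), from an overexpression effect of -2.004 and a knockdown effect of 2.39. The native lines started far apart, with IFIT3 at 48.1 FPKM or more in every KYSE180 control and at most 5.09 in any KYSE150 control.

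The sensors themselves were among these genes. DDX58 (RIG-I), the receptor for RNA with a 5′ triphosphate, was at 22.7, 9.99 and 10.7 FPKM in native KYSE180 against 2.88, 4.08 and 3.64 after overexpression, and at 1.22, 1.45 and 1.21 in the KYSE150 controls against 3.59, 4.57 and 3.71 with shCDCA7. Its difference was -2.79 (SE 0.34, adjusted p = 0.00241). IFIH1 (MDA5), the receptor for long double-stranded RNA, was at 20.7, 8.75 and 11.6 against 4.82, 5.11 and 5.30 FPKM in KYSE180 and 2.86, 2.60 and 2.60 against 7.08, 9.37 and 7.35 in KYSE150, a difference of -2.46 (SE 0.32, adjusted p = 0.00307). Neither sensor overlapped between the groups of a line. RSAD2 (viperin), an antiviral enzyme, differed by -3.16, and DDX60, a helicase that promotes RIG-I signalling, by -2.84. The 8 other called members each passed in 1 single-line test. OASL (-2.55), IFIT2 (-2.37), ZC3HAV1 (-1.45) and HERC5 (-1.38) were called in KYSE150. HERC6 (-2.81), IFI16 (-1.86), DHX58 (-1.57) and PARP12 (-1.42) were called in KYSE180. Of 20 tested genes for RNA sensing and interferon induction on a separate list, IRF1, an interferon-inducible transcription factor, and IFNGR1, a chain of the interferon gamma receptor, were called lower, with differences of -1.11 and -0.74, and none was called higher. These are 10.0% of the list, against 2.28% of all tested genes. The list as a whole had a median of only -0.08, with 7 estimates above 0 and 13 below. Omitting a library left 0 to 3 members called lower and 0 to 1 higher.

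The KYSE180 controls differed widely among themselves in this gene group. The mean log2(FPKM + 1) of the 55 genes was 5.82, 3.66 and 5.08 in KYSE180 control replicates 1 to 3, and 3.25, 3.33 and 3.34 after overexpression. In KYSE150 it was 2.27, 2.33 and 2.32 in the controls and 2.85, 2.86 and 2.83 with shCDCA7. ISG15, a ubiquitin-like protein of the interferon response picked here after its values were seen, was at 584, 68.9 and 294 FPKM in native KYSE180 and 70.1, 42.9 and 58.6 after overexpression, so control replicate 2 lay within the range of the overexpressing cells. ISG15 did not pass the test (difference -3.32, adjusted p = 0.0619), nor did MX1 (-3.35, adjusted p = 0.137). Without KYSE180 control replicate 2, 52 of the 55 genes were called lower, with a median of -2.44, and over all single-library omissions the number called ranged from 9 (without KYSE150 control replicate 1) to 52. What sets that replicate apart was not tested. IFI44, IFIT3, IFIT1, DDX60, DDX58, OASL and IFIH1 were called whichever single library was left out.

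**Figure D2:**
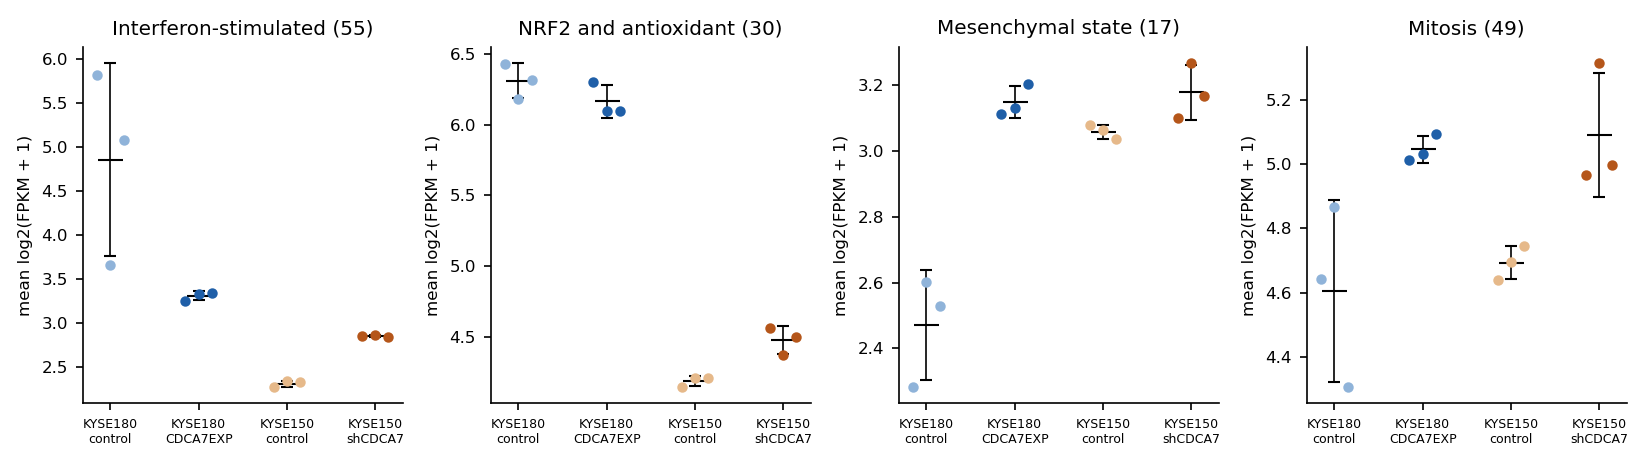
Mean log2(FPKM + 1) of the tested members of 4 gene lists in each of the 12 libraries (points), with the group mean and SD (n = 3) in black. Interferon-stimulated genes ran from 3.66 to 5.82 in the KYSE180 controls and from 2.27 to 2.33 in the KYSE150 controls, and the mitosis genes had a higher group mean in both manipulated groups.

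Promoters of the interferon-stimulated genes are printed because most of those available hold a sequence that the test did not use. They come from the RefSeq promoter table (GRCh38.p14), which matched 9234 of the tested genes and covers 250 bases before to 50 after a start site. The core of the interferon-stimulated response element was searched as AAANNGAAA on both strands, where overlapping matches were allowed and other motifs were not masked. It occurred in 34 of the 46 list members with a promoter in the table (73.9%), in 9 of 12 of those called lower, in 16.99% of all genes called lower and in 8.90% of those called higher. The share was 9.75% of tested genes and 10.5% of all 35116 promoters in the table. Members called lower held it about as often (75.0%) as the whole list. Of other motifs searched, AP-1 (TGANTCA) was in 12.1% of genes called lower and 6.67% of tested genes. The E-box (CACGTG) was in 11.2% and 12.7%. Protein-coding genes called lower had a median GC content of 43.5%, against 48.5% of all tested, which the search did not allow for. A match is a description of the letters, not a measured binding site. The 4 promoters below were chosen after their values were seen, each shown as the 250 bases before the start, 5′ to 3′, with the matches in capitals. Where the table lists several starts, the one with the most matches is shown.
IFI44 (chr1:78649539-78649788, plus strand): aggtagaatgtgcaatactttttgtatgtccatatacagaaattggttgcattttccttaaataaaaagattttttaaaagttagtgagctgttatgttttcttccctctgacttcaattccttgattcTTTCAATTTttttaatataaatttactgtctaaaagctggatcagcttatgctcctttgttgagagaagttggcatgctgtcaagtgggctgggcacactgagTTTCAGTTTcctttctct
IFIT3 (chr10:89332279-89332528, plus strand): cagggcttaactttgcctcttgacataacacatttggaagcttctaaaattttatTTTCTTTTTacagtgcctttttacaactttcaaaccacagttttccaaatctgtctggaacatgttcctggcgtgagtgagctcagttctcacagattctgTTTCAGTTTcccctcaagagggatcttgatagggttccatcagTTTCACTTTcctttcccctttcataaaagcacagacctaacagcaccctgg
IFIT1 (chr10:89392373-89392622, plus strand): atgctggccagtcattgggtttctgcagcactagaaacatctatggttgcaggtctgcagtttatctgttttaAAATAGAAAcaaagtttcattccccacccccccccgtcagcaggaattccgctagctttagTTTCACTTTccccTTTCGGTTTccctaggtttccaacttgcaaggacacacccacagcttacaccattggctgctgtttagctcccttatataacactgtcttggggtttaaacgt
IFIH1 (chr2:162318685-162318934, minus strand): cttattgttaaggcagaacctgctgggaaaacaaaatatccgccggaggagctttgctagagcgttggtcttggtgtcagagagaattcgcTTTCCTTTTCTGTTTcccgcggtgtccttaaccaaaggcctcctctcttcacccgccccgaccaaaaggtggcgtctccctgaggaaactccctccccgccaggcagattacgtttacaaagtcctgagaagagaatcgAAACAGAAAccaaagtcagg
IFIT3 and IFIT1 held 3 matches each and IFI44 held 2. IFIH1 held 3, of which 2 overlap.

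Antioxidant genes formed the list with the largest share called in 1 direction. NRF2 is the transcription factor that drives glutathione and thioredoxin metabolism and is often active in squamous carcinomas. Of 30 tested genes 10 were called lower (33.3%, against 2.28% of all tested genes) and 0 higher, with a median of -0.50. More members were called after knockdown than after overexpression: 12 rose and 1 fell in KYSE150, and 4 fell and 4 others rose in KYSE180. Knockdown also called more of all tested genes, 22.8% against 16.1% for overexpression. TXNRD1, thioredoxin reductase, was at 112, 94.8 and 104 FPKM in native KYSE180 and 91.7, 88.7 and 81.3 after overexpression, and at 49.95, 48.4 and 51.9 in the KYSE150 controls and 102, 94.7 and 96.7 with shCDCA7. All 3 knockdown libraries exceeded their controls, and the difference was -1.20 (SE 0.14, adjusted p = 0.00215). GSR, glutathione reductase, stood at 27.9, 30.7 and 30.1 FPKM in the KYSE150 controls and 54.8, 55.3 and 52.8 with shCDCA7, with a knockdown effect of 0.86, an overexpression effect of -0.10 and a difference of -0.95 (SE 0.16, adjusted p = 0.00967). For the glutathione synthesis subunit GCLM (-1.03), the cystine transporter SLC7A11 (-0.95) and the reductase AKR1B10 (-0.94), the single-line call was the fall in KYSE180. HMOX1 (-0.96), ME1 (-0.93), GCLC (-0.93), PGD (-0.89) and NQO1 (-0.78) were called in KYSE150, where they rose. NFE2L2, which encodes NRF2, and its inhibitor KEAP1 had no called difference (-0.52 and 0.51, adjusted p = 0.224 and 0.138). In single-library omissions 2 (without KYSE150 control replicate 2) to 12 (without shCDCA7 replicate 2 or KYSE180 control replicate 2) members were called lower.

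The antioxidant response element core, TGACNNNGC on both strands, was added as a motif after the data were seen. It occurred in the promoters of 4 of the 6 called members in the RefSeq table, in 7 of the 22 list members there and in 19.4% of tested genes. The 250 bases before the start are shown for the first and last of those 4 by position in the ranking of differences, with matches in capitals.
TXNRD1 (chr12:104215529-104215778, plus strand): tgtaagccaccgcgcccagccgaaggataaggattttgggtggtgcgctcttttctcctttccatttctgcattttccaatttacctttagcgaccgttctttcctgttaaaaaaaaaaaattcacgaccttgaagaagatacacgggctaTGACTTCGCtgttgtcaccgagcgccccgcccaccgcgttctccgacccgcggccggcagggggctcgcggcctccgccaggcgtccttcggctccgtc
PGD (chr1:10398814-10399063, plus strand): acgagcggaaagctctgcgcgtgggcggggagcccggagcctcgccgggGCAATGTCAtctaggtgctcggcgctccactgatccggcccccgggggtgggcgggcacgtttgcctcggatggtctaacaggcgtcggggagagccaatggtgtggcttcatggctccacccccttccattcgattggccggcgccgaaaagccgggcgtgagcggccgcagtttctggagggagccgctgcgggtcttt
A second TXNRD1 match runs across the start site and is not shown.

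Some hypoxia and glucose-uptake genes were lower as well. Of 35 tested, 5 were called lower (14.3%, against 2.28% of all tested genes) and 0 higher, with a median of -0.29. The count called lower ran from 3 (without any KYSE150 control or CDCA7EXP replicate 3) to 9 (without KYSE180 control replicate 3). SLC2A1, the glucose transporter GLUT1, fell from 118, 120 and 89.3 to 70.5, 71.2 and 76.8 FPKM in KYSE180 and rose from 45.6, 45.9 and 42.8 to 69.4, 58.3 and 72.8 in KYSE150, without overlap in either line, for a difference of -1.13 (SE 0.19, adjusted p = 0.00967). PLOD2, a collagen lysyl hydroxylase, also had opposite effects (-0.57 and 0.59). ADM, the vasodilator peptide adrenomedullin (-1.998), HIF1A, the hypoxia-inducible factor (-1.56), and SLC2A3, a second glucose transporter (-0.99), rose in KYSE150 and had no called change in KYSE180. SLC2A3 was below 1 FPKM in all 6 KYSE180 libraries, and in limma-voom on the recovered reads its difference had the other sign (0.20, adjusted p = 0.835).

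Cytokine and death-receptor genes added further lower calls. On the NF-kappaB, cytokine and chemokine list 6 of 33 were called lower (CCL2, BIRC3, CXCL2, IL1A, ICAM1 and IL1B) and 1 higher (CXCL14), with a median of -0.76. These are 18.2% lower and 3.03% higher, against 2.28% and 2.55% of all tested genes. Without KYSE180 control replicate 2, 14 of the list were called lower, and 9 of the other single-library omissions left 2 called lower. IL1A, an inflammatory cytokine, was below 1 FPKM in all 6 KYSE180 libraries and went from 20.2, 17.5 and 19.7 to 51.7, 45.8 and 41.4 FPKM in KYSE150. FAS, the death receptor, was at 8.72, 5.68 and 8.42 against 3.30, 3.65 and 3.19 FPKM in KYSE180 and 4.07, 3.98 and 4.01 against 6.41, 6.44 and 6.31 in KYSE150. Both lines moved without overlap and in opposite directions, with a difference of -1.51 (SE 0.19, adjusted p = 0.00241). FADD, the adaptor that couples FAS to caspases, went the other way: its knockdown effect was -1.79, its overexpression effect -0.36 and its difference 1.43 (SE 0.25, adjusted p = 0.0130). In antigen presentation by HLA class I, 2 of 19 genes were called lower (2.28% of all tested genes were), PSMB9 (-2.002, adjusted p = 0.0479) and B2M (-1.88, adjusted p = 0.0498). Both are close to the threshold, and KYSE180 control replicate 2 held the lowest value of its group for each. The list had a median of -0.95, with 18 of 19 estimates below 0. Without KYSE180 control replicate 2, 12 were called lower, without shCDCA7 replicate 2 it was 4, and each of the other 10 omissions left 0.

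A smaller set of genes followed CDCA7 in both lines. The 21 genes called higher with opposite effects include CDCA7 itself. Among the others, TNS4, a focal-adhesion adaptor of epithelial cancers, was at 15.05, 19.9 and 20.6 FPKM in native KYSE180 and 29.3, 39.0 and 43.1 after overexpression, and at 13.2, 12.4 and 12.2 in the KYSE150 controls and 5.09, 5.13 and 6.96 with shCDCA7. No group overlapped its control, and the difference was 1.99 (SE 0.24, adjusted p = 0.00215). GJB5, connexin 31.1 of keratinocyte gap junctions, was at 8.12, 12.4 and 7.11 against 18.3, 17.9 and 18.5 FPKM in KYSE180 and 16.2, 17.3 and 16.3 against 7.37, 8.74 and 5.54 in KYSE150, again without overlap, a difference of 2.07 (SE 0.26, adjusted p = 0.00265). PPP1R3D, a glycogen-targeting subunit of protein phosphatase 1, differed by 1.57 (SE 0.15, adjusted p = 0.000899), from 0.75 and -0.82. HSPA2 (1.60), a heat shock protein of the HSP70 family, was near 1 FPKM in KYSE150, which compresses its knockdown effect. Others were the podosome scaffold SH3PXD2A (1.34), the transcriptional coregulator ZMIZ1 (1.33), the secreted protease ADAMTS1 (1.16), the kinase SGK1 (0.96) and the laminin-binding integrin ITGA3 (0.86). With the GC trend of each library removed, ITGA3 was no longer called (adjusted p = 0.161).

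**Figure D3:**
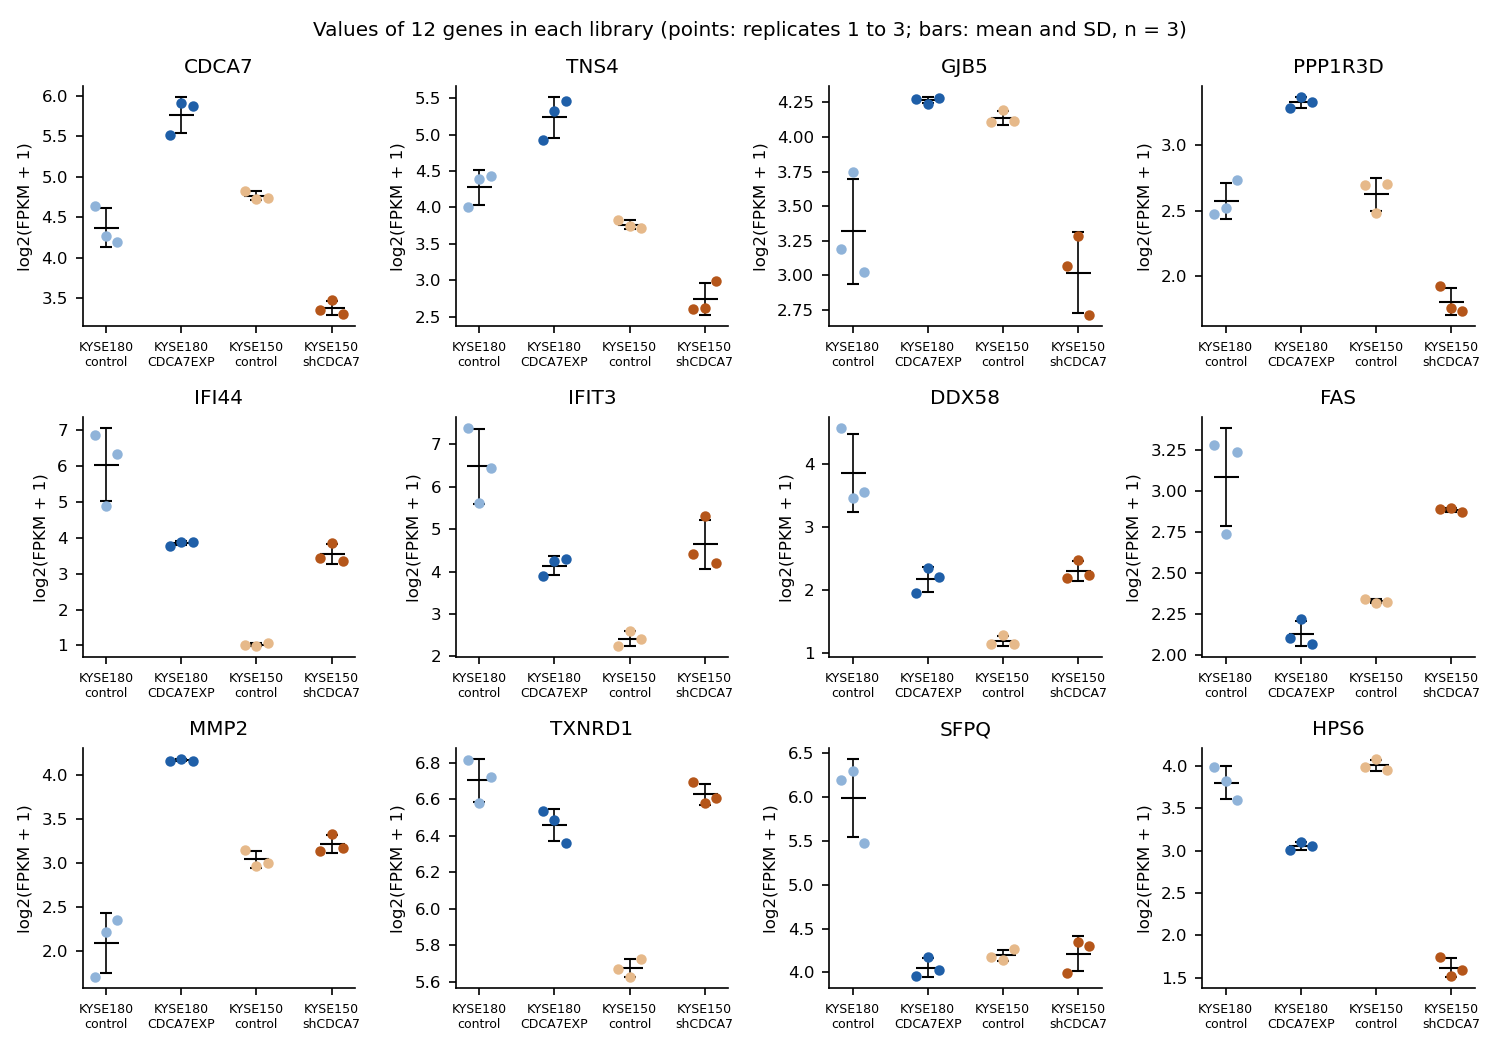
log2(FPKM + 1) of 12 genes in each library, with group means and SD (n = 3); each panel has its own y axis, not starting at 0. CDCA7, TNS4, GJB5 and PPP1R3D rise with overexpression and fall with shCDCA7, and IFI44, IFIT3, DDX58 and FAS do the reverse; MMP2 and SFPQ moved in KYSE180, TXNRD1 in KYSE150, and HPS6 fell in both.

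Overexpression raised invasion-associated genes in KYSE180 that knockdown left without a called change in KYSE150. On the mesenchymal list 5 of 17 tested genes were called higher (29.4%, against 2.55% of all tested genes) and 0 lower, with a median of 0.38. They included MMP2, TWIST1, SNAI1 and CD44. MMP2, a secreted gelatinase, was at 2.25, 3.67 and 4.09 FPKM in native KYSE180 and 16.9, 17.1 and 16.8 after overexpression, and at 7.87, 6.83 and 7.02 in the KYSE150 controls and 7.81, 9.07 and 7.99 with shCDCA7. The KYSE180 groups stood far apart, the KYSE150 groups overlapped, and the difference was 1.90 (SE 0.21, adjusted p = 0.00159). The transcription factor TWIST1 differed by 1.53 (SE 0.33, adjusted p = 0.0261) and SNAI1 by 1.25 (SE 0.28, adjusted p = 0.0291). Vimentin (VIM) and ZEB1 were below the expression limit, VIM at no more than 1.11 FPKM in any library. SNAI2 (0.15, adjusted p = 0.737), FN1 (-0.57, adjusted p = 0.338) and E-cadherin, CDH1 (-0.40, adjusted p = 0.393), did not pass. Leaving out any KYSE150 control or CDCA7EXP replicate 3 left 1 call on the list, and leaving out shCDCA7 replicate 2 or KYSE180 control replicate 2 gave 6.

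Cell-matrix adhesion genes were likewise called higher, 5 of 27 on the hemidesmosome, laminin and integrin list and 0 lower, against 2.55% of all tested genes called higher. Omitting a library gave from 2 (without any KYSE150 control, or CDCA7EXP replicate 2 or 3) to 8 (without shCDCA7 replicate 2) higher. The basement-membrane protein NID1 (1.24) and the integrin ITGB5 (0.72) rose in KYSE180. Plectin, PLEC (1.12), and ITGB4 (0.57), which link keratin filaments to the matrix, fell in KYSE150. With the GC trend removed, 3 of the list were called, and PLEC (adjusted p = 0.256), ITGB4 (0.655) and ITGA3 (0.161) were not. PTHLH, the parathyroid hormone-related protein secreted by squamous carcinomas, had the largest positive difference after CDCA7 among called protein-coding genes with a mean of at least 5 FPKM, 2.50 (SE 0.45, adjusted p = 0.0134). PTHLH was at 8.62, 31.2 and 13.5 FPKM in native KYSE180 and 55.7, 50.6 and 51.7 after overexpression, and at 22.8, 21.6 and 21.7 in the KYSE150 controls and 12.2, 12.6 and 11.8 with shCDCA7. Neither line overlapped, although the fall in KYSE150 was not called by itself. The spread used in that test was estimated over all 4 groups, so the scatter among the KYSE180 controls enters it. Of 36 TGF-beta target genes, 3 were called higher (8.33%, against 2.55% of all tested genes), among them PTHLH and TGFB1I1, and 0 lower. Without shCDCA7 replicate 2 these counts were 5 and 2, and over all omissions 1 (without any KYSE150 control, shCDCA7 replicate 1 or 3, or CDCA7EXP replicate 3) to 5 were higher. The median difference of the TGF-beta targets was 0.18, with 19 estimates above 0 and 17 below. Taken singly, overexpression raised 11 and lowered 0, and knockdown raised 9 and lowered 2. Over all tested genes, overexpression raised 8.76% and knockdown 12.8%. Among 27 pathway components, SMURF1, a ubiquitin ligase that acts on SMADs, was higher (0.59), and the ligand TGFB2, below 0.3 FPKM in KYSE180, was lower (-1.13).

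Some called differences rested on genes that 1 line hardly used. CXCL14, a chemokine of squamous epithelia, went from 2.86, 3.41 and 2.57 to 20.5, 18.4 and 20.4 FPKM in KYSE180 and was listed at 0 in all 6 KYSE150 libraries, for a difference of 2.40 (SE 0.15, adjusted p = 3.77e-05). TXNIP, an inhibitor of thioredoxin that responds to glucose, went from 40.5, 40.6 and 50.8 to 168, 119 and 186 FPKM in KYSE180 and was listed at 0 in 5 KYSE150 libraries. Of 918 tested genes below 1 FPKM in all 6 KYSE150 libraries, 55 were called higher and 31 lower. Of 308 below 1 FPKM in all 6 KYSE180 libraries, 15 were called higher and 20 lower. Over all tested genes 2.55% were called higher and 2.28% lower. For these 121 genes the difference is nearly the effect in the other line.

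Overexpression also lowered several RNA-binding proteins of nuclear bodies in KYSE180. SFPQ, a core paraspeckle protein, fell from 72.0, 77.3 and 43.6 to 14.6, 17.04 and 15.3 FPKM, and stayed at 17.1, 16.7 and 18.2 in the KYSE150 controls and 14.9, 19.4 and 18.7 with shCDCA7. The difference was -1.95 (SE 0.27, adjusted p = 0.00343), and the overexpressing cells reached the range of KYSE150. CPSF6, a cleavage factor, behaved alike (-0.60). On this list of 27 genes 4 were called lower, including the nuclear RNA MALAT1, which instead rose in KYSE150, from 16.9, 14.7 and 17.05 to 54.7, 60.0 and 67.5 FPKM. The share of all tested genes called lower was 2.28%, and omitting a library left 2 (without any KYSE150 control, or CDCA7EXP replicate 2 or 3) to 7 (without shCDCA7 replicate 2 or KYSE180 control replicate 3) called lower on the list. Clock genes were called higher: 3 of 17, namely TEF (1.64), PER2 (1.15) and CRY2 (0.80), against 2.55% of all tested genes. Without any KYSE150 control or CDCA7EXP replicate 3 none of the list was called higher, and without shCDCA7 replicate 2 it was 4. PER2 passed in neither line alone, and CRY2 was not called with the GC trend removed (adjusted p = 0.0516).

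Knockdown in KYSE150 moved another set without a called change in KYSE180. ACTG1, cytoplasmic gamma actin, rose from 367, 332 and 340 to 1185, 1379 and 1223 FPKM and was at 468, 519 and 646 and then 558, 504 and 500 FPKM in KYSE180, a difference of -1.91 (SE 0.20, adjusted p = 0.000945). ACTG1 has near-identical copies, and the treatment of shared reads is not given, so its level is uncertain. KDM6A, a histone H3K27 demethylase, rose from 9.99, 9.61 and 9.79 to 34.6, 43.0 and 34.3 FPKM (-1.68). ENC1, a BTB-kelch protein (-1.82), PLK2, a stress-induced kinase (-1.56), and DUSP10, a phosphatase of stress-activated kinases (-1.64), did likewise. RHOBTB2 (1.49) and C1orf116 (1.49) fell with shCDCA7 from 11.5, 12.9 and 12.1 to 4.78, 4.44 and 4.08 and from 10.4, 10.8 and 10.2 to 2.92, 4.57 and 2.79 FPKM.

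Genes that moved the same way in both lines, by unequal amounts, were mostly falls. Of the 25, 16 fell further in KYSE150 than in KYSE180. HPS6, a subunit of a lysosome-biogenesis complex, went from 14.8, 13.1 and 11.1 to 7.03, 7.60 and 7.27 FPKM in KYSE180 and from 14.8, 15.9 and 14.4 to 2.36, 1.88 and 2.02 in KYSE150, effects of -0.75 and -2.38 and a difference of 1.63 (SE 0.16, adjusted p = 0.000899). PRMT6, an arginine methyltransferase, had effects of -0.69 and -1.86. The transcription factors ATF3 (0.60 and 1.62) and KLF6 (0.60 and 1.26) and the histone gene HIST2H2BE (0.88 and 2.38) rose in both lines and rose more in KYSE150.

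Called genes differed from the rest in gene structure. Protein-coding genes called higher had a median GC content of 55.7% and those called lower 43.5%, against 48.5% of all tested. At most 2 exons were present in 19.9% of the genes called higher (56 of 281), 9.09% of those called lower and 5.41% of all tested. In the same-direction genes called higher it was 8 of 13, HPS6 and PRMT6 among them. Across 12666 genes, which are not independent replicates, the difference correlated with GC content at r = 0.325. The knockdown effect correlated with GC at r = -0.372 and the overexpression effect at r = -0.011. Without shCDCA7 replicate 2, the library with 11.2% mitochondrial reads, r was 0.104, and the genes called higher had a median GC content of 52.6% and 13.5% with at most 2 exons. With the GC trend of each library removed, 434 of the 612 genes were still called with the same sign, and 17.5% of those called higher had at most 2 exons. That setting ended 19 of the 107 called genes of the naming rule, among them IFNGR1 (adjusted p = 0.147), CPSF6 (0.130), TGFB1I1 (0.140) and B2M (0.0831). Whether library composition contributes to the GC relation was not tested beyond these values.

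**Figure D4:**
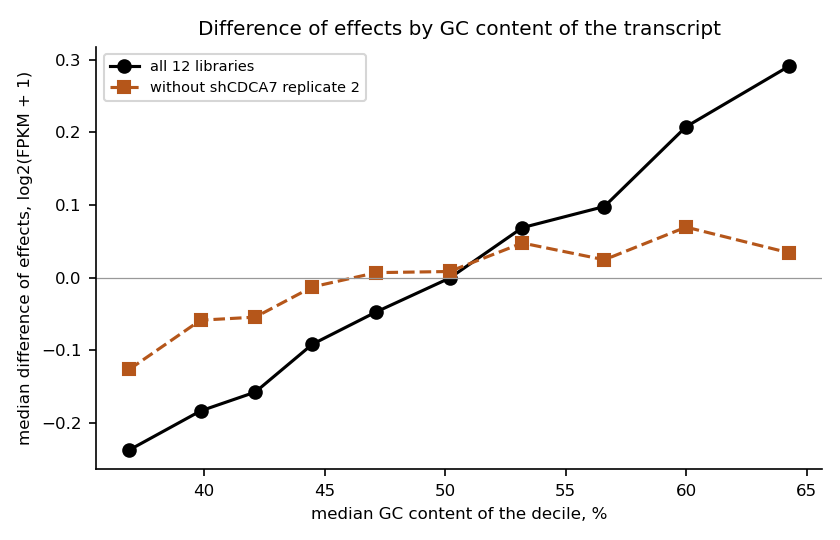
Median difference of the effects, log2(FPKM + 1), in 10 equal groups of tested genes ordered by GC content, with all 12 libraries (circles) and without shCDCA7 replicate 2 (squares). The median runs from -0.24 in the lowest to 0.29 in the highest GC group, and from -0.13 to 0.03 without that library.

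Of the 739 genes called in the same direction in both lines, 714 had no called difference. The genes below were picked from these for large effects, so the missing call is a condition of the choice. PER1, a clock gene induced by many stimuli, rose by 2.60 in KYSE180 and 1.70 in KYSE150, with a difference of 0.90 (95% interval 0.21 to 1.60, adjusted p = 0.128). The mitochondrial ribosomal RNA MT-RNR2 rose by 2.50 and 2.17 (difference 0.33, 95% interval -0.74 to 1.39). GADD45B, a stress-response gene, rose by 1.45 and 1.67 (difference -0.22, 95% interval -0.78 to 0.34). ZC3H4, a factor that restrains non-coding transcription, had effects of -1.85 and -1.44 (difference -0.41, 95% interval -0.74 to -0.08). The intervals of PER1 and MT-RNR2 reach beyond 1 log2 unit, so these data leave room for unequal responses of that size.

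Several functional groups had few or no called differences. For single-line counts, overexpression raised 8.76% and lowered 7.39% of all tested genes, and knockdown raised 12.8% and lowered 10.0%. Of 49 mitosis genes, 17 rose with overexpression and 18 with knockdown, and none had a called difference (median 0.03). DNA replication genes went down in both, 10 and 19 of 50, again with no called difference. KYSE180 control replicate 3 already stood low, with a mean log2(FPKM + 1) of 3.81 over these genes, against 4.34 and 4.39 in the other KYSE180 controls and 3.82 to 3.87 after overexpression. It was also the lowest KYSE180 library for mitosis genes (4.31). AP-1 and immediate-early genes rose in both, 16 and 12 of 29, and 2 were called, both lower (6.9%, against 2.28% of all tested genes). No member was called among 74 cytosolic ribosomal proteins, 46 ribosome biogenesis genes, 38 nuclear-encoded respiratory chain genes or 30 homologous recombination and Fanconi genes. The ribosome biogenesis genes had a median of -0.31, with 37 of 46 estimates below 0, and 14 were called lower without KYSE180 control replicate 3. At an unadjusted p under 0.05 the limma counts were 4 mitosis, 4 replication, 5 ribosomal protein, 10 ribosome biogenesis, 2 respiratory chain and 5 repair genes, and limma-voom called none of these. Within the DNA methylation machinery CDCA7 was the single call of 20. HELLS, its remodeller partner, had a difference of -0.34 (95% interval -0.76 to 0.08, adjusted p = 0.331). UHRF1, which recognises hemimethylated DNA, fell in both lines (-0.86 and -1.01), as did the maintenance methyltransferase DNMT1 (-0.40 and -0.49).

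**Figure D5:**
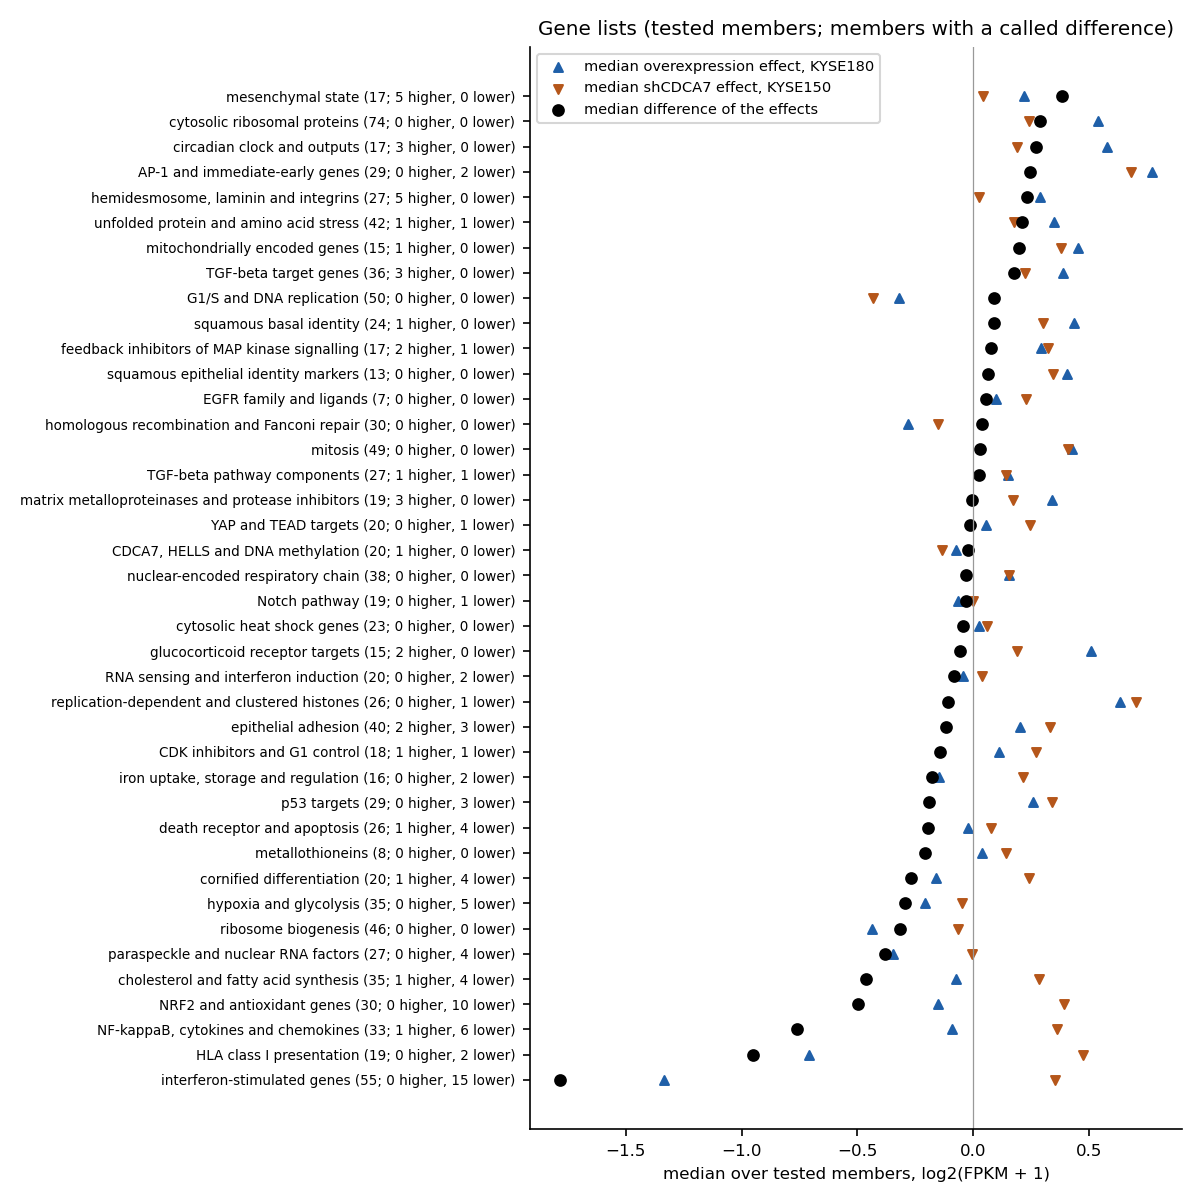
Median effect of overexpression (blue), of shCDCA7 (orange) and of their difference (black) over the tested members of each gene list, log2(FPKM + 1); labels give the tested members and those with a called difference. Interferon-stimulated genes have the lowest median difference, -1.79, and the mesenchymal list the highest, 0.38.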

How the data were processed

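The deposited table gives 1 value per gene and library with no unit named. The values are FPKM by the authors' normalization: multiplied by the deposited gene length, they are whole multiples of 1 step per library for 100% of values above 0 (tolerance 0.01 reads), which gave the reads per library. Per the submitters' processing notes, HISAT2 2.0.5, DESeq2 1.20.0 and the mouse build mm10 were used. All 58735 gene identifiers and positions match human GENCODE 29 (GRCh38), which supplied GC content and exons. The sources used here do not name the counting tool. Groups come from the titles.

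Log2(FPKM + 1) of the 12 libraries in 4 groups was fitted with limma 3.58.1 (R 4.3.3; intensity trend in the prior, two-sided, Benjamini-Hochberg over 12672 genes, called under 0.05), a script tested on simulated data. In the simulation all groups of a gene had the same spread, so groups that scatter unequally were not covered. In the fit each gene had a single spread, estimated over all 4 groups and used for both single-line effects and the difference. Patterns of single-line calls and the difference share libraries and are descriptive. The genes compared and the 43 lists were chosen with earlier results of these data known. Named genes are CDCA7, SMAD4 and SMAD7; the 12 largest called differences per direction; up to 8 opposite, 4 same-direction and 4 single-line genes per direction; 5 shared genes; up to 4 called members per list; and genes added after their values were seen (among them ISG15, MX1, KEAP1, NFE2L2 and the further called members of a list). Some genes that the rule selects are not reported here. Alternatives covered pseudocount, filter, scaling, prior, library weights, a replicate block, GC and each library in turn. Limma-voom on the recovered reads called 265 genes higher and 206 lower. No gene list was tested as a set. Counting error is limited by 16282281 to 19573805 reads per library without molecular identifiers.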

Additional observations from a re-analysis of the deposited data

Results flagged for a closer look

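The overexpression effect in KYSE180 and the knockdown effect in KYSE150 differed in 612 genes by the test of the difference itself, which is the comparison described above. A line and a manipulation change together in it. With 3 libraries a group, no library was tested for standing apart from its group on single genes.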

How the results depend on the processing

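The number of calls depended on single libraries. In fits that each left out 1 of the 12 libraries, 93 (without KYSE150 control replicate 1) to 624 (without shCDCA7 replicate 2) genes were called higher, 66 to 578 lower, and 19 (without CDCA7EXP replicate 3) to 110 (without KYSE180 control replicate 2) were opposite in the 2 lines. Without shCDCA7 replicate 2, 603 of the 612 genes were still called with the same sign, and 136 were called in all 12 such fits. A mean of at least 5 FPKM gave 172 higher, where fewer genes were tested. No filter gave 29 opposite genes. An adjusted p under 0.01 left 62 higher and 45 lower. Scaling to total reads gave 442 higher and 217 lower, upper-quartile scaling 402 and 250, and TMM 385 and 267. The replicate numbers do not pair the samples: deviations of same-numbered libraries correlated between -0.113 and 0.421, over 0.1 in 4 of 18 pairs. With the replicate block 260 were higher, 210 lower and 43 opposite, and 438 of the 612 were shared. Library weights in limma did not converge (weights 0.049 to 41.1) and gave 3390 higher, 3554 lower and 1224 opposite, so they support nothing here. The planned fit without trend and with a robust prior was run as 2 separate settings, chosen after the data were seen. CDCA7 was called in every fit. Of 107 named calls, 37 were never lost in any alternative, and 603 of the 612 calls kept their sign in all 25 alternatives other than the weights. The sign differed from the reported one for SLC2A3 (0.198) in limma-voom, and for 3 genes of the naming rule not described above: AC039056.2 (0.035) and CCND2 (0.24) in limma-voom, and MIR570 (2.54) with a pseudocount of 0.1. The cause was not tested.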

Other observations

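Without the limit on low expression, 170 further genes below a mean of 1 FPKM had a called difference. CDH2, N-cadherin, was at 0 in all 6 KYSE150 libraries and at 0.259, 1.196 and 0.266 FPKM in native KYSE180, against 2.40, 2.96 and 2.96 after overexpression. KRT1, a keratin of differentiated squamous epithelium, averaged 0.614 FPKM in the KYSE180 controls and 3.38 after overexpression, and was at 0 in KYSE150. Both were picked after their values were seen. The list of cornified differentiation genes, which holds further markers of that state, had 4 of 20 tested members called lower (SLPI, KLK10, SERPINB13 and KLK5) and 1 higher (SPRR1A), with a median difference of -0.27. Over all tested genes 2.28% were called lower and 2.55% higher. Omitting a library gave from 0 (without KYSE150 control replicate 1 or 3) to 6 (without KYSE180 control replicate 2) lower.

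By annotation class, sense-intronic transcripts had 11 called of 74 tested (14.9%), against 534 of 10821 protein-coding genes (4.93%) and 22 of 413 antisense genes (5.33%). Whether the counting used strand is not given, so reads of an intronic or antisense transcript and of its host gene cannot be told apart.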
